A study of Mus musculus with 2 samples.

Results

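The cells described here are mouse buccal epithelial cells that carried S-phase transcripts and the suprabasal keratins Krt4 and Krt13 at the same time. They were chosen by 2 sums of unique molecular identifiers (UMIs) per 10000 UMIs of a cell. The S-phase sum of Mcm3, Ung, Hells, Dtl, Ccne2, Cdt1 and Rrm2 had to reach 6 and to exceed the G2/M sum of Top2a, Cenpf, Ube2c, Ccnb1, Nusap1 and Prc1. The sum of Krt4 and Krt13, called the keratin sum, had to reach 80. The rule found 98 cells among 15470 kept barcodes, 28 in library 1 and 70 in library 2. They are called keratin-high S-phase cells below.

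The study took buccal mucosa from 10 C57BL/6 females aged 12 weeks, pooled the tissue and sorted cells with much CD104 on the surface. CD104 is the β4-integrin chain (gene Itgb4) that anchors basal keratinocytes to the basement membrane. One suspension was divided into 2 technical replicates and captured on the 10x Chromium platform. The libraries are therefore splits of 1 independent sample, and no significance test was made. The sort limits the material to cells that still held the integrin protein, and no unsorted cells were used here. Depth was even: the median was 7690 UMIs per kept barcode in library 1 and 6709 in library 2. Of the kept barcodes, 96 occurred in both libraries, and 0 of them were keratin-high S-phase cells in both.

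Stratified oral epithelium renews from basal cells, which are thought to divide, detach and mature as they move to the surface. Krt5 and Krt14 form the filaments of basal cells, while Krt4 and Krt13 form those of the maturing layers in the oral lining. DNA replication is switched on by E2F transcription factors, which drive the genes for origin licensing, the replication fork, nucleotide supply and new chromatin once cyclin D and CDK4 have inactivated the pocket proteins. Maturation is usually pictured as coupled to leaving the cell cycle, with inhibitors such as the Cdkn1a product p21 opposing the cyclin-dependent kinases.

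Promoter windows are shown to set the letters of S-phase genes beside a keratin of the rule. RefSeq windows (GRCm38.p6) run from 250 bases before to 50 bases after the start site. They were searched on both strands for 4 E2F-type octamers, TTTCCCGC, TTTGGCGC, TTTCGCGC and TTTGCCGC, of which an octamer and the reverse complement of another can overlap. Any of the 4 was found in 2.26% of all 32851 windows. Of the rule's S-phase genes, 4 of 6 with a window held one, as did 6 of 12 licensing genes, 9 of 27 fork genes, 4 of 15 chromatin genes and 8 of 13 E2F and pocket protein genes. Nucleotide supply genes held one in 1 of 17 (5.88%), nearer the share of all windows. None was found in the 6 G2/M genes of the rule or in 19 other mitosis genes, and 1 of 19 cornified envelope genes held one. Capitals mark the matches. A match describes letters and is not evidence of binding. The windows are Mcm6 (chr1:128359656-128359955, minus strand) and Mcm3 (chr1:20820263-20820562, minus strand), both helicase subunits, Hells (chr19:38930740-38931039, plus strand), a chromatin remodeller, and Krt13 (chr11:100121517-100121816, minus strand).
Mcm6: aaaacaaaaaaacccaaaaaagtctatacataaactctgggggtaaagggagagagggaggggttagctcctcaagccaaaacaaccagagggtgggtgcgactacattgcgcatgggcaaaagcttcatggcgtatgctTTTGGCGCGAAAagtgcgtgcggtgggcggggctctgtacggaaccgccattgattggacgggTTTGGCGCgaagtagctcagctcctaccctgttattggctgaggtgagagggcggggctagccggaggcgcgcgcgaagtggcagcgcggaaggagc
Mcm3: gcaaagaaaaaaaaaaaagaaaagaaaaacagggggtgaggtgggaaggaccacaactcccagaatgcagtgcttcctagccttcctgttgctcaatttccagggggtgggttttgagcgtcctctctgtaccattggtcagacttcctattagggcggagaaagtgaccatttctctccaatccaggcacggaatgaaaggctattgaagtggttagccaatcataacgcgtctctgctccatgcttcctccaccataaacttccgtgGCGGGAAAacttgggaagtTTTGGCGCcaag
Hells: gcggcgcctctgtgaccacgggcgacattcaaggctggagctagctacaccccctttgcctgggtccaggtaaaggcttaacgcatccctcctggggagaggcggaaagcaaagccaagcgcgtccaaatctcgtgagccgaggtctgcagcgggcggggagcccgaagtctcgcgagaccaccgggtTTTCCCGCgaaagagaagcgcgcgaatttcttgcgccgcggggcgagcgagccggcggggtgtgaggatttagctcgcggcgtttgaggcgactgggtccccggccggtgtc
Krt13: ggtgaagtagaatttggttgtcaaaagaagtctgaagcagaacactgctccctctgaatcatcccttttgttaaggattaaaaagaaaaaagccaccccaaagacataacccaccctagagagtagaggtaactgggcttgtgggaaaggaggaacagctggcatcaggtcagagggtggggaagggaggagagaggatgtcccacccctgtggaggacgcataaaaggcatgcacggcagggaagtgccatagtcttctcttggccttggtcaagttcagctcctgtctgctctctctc
Mcm6 held 3 matches, 2 of which overlap, Mcm3 held 2 and Hells held 1. The Krt13 window held 0, which says only that these letters are absent from it.

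Values used for the choice come first, as a description. In keratin-high S-phase cells the keratin sum had a median of 138 in library 1, with a range of 83.8 to 338. In library 2 the median was 112, with a range of 80.2 to 688. Their median S-phase sum was 12.2 and 11.1, against 12.8 and 14.1 in the S-phase cells with keratin sums under 80 (156 and 157 cells, called keratin-low S-phase cells). Summed over cells and scaled to 1000000 counts (CPM), the rule's gene Krt13 (chr11:100117327-100121566) stood at 10119 and 9016 CPM, against 2405 and 2470 CPM in keratin-low S-phase cells. Krt4 (chr15:101918535-101924735) stood at 5640 and 6108 CPM against 1164 and 1310 CPM. Ccne2, the cyclin E2 gene, stood at 131.7 and 140.0 CPM against 135.7 and 155.6 CPM. The cells just outside the keratin threshold (60 to 80) numbered 15 and 16 by library, and those just inside (80 to 100) numbered 6 and 25. At keratin sums of at least 80, S-phase sums of 5 to 6 were held by 8 and 13 cells, and sums of 6 to 7 by 4 and 8 cells. Of all barcodes with S-phase sums of at least 6, 260 of 444 and 349 of 576 had a G2/M sum as high or higher. They were left to G2/M, and 33 and 58 of them had keratin sums of at least 80. The shares of S-phase cells below leave them out. In 9 and 25 keratin-high S-phase cells the G2/M sum also reached 6, so the 2 sums overlap in these cells.

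Of the markers named for these cells, Zfp750 was not used by the rule. It was named with earlier results of these data known, so its levels are a description and not an independent check. Zfp750, a transcription factor of keratinocyte maturation, stood at 19.96 and 32.7 CPM in keratin-high S-phase cells. It stood at 4.38 and 6.06 CPM in keratin-low S-phase cells. It stood at 52.6 and 47.9 CPM in cells with keratin sums of 80 to 350 and both cycle sums under 6 (1349 and 1622 cells, called low-score keratin cells). Thus the keratin-high S-phase cells lay between the other classes in both libraries, on 5 and 18 UMIs, though the gene was too low to be counted against keratin-low S-phase cells below. Markers of other cell types were low: the 10 immune genes summed to 15.97 and 16.4 CPM with 5 genes at 0, and the 8 glandular genes to 35.9 and 27.3 CPM with 5 at 0. The 10 mesenchymal and vascular genes summed to 63.9 and 49.1 CPM with 7 at 0, the 8 melanocyte and Schwann genes to 12.0 and 40.004 CPM with 6 at 0, and the 6 muscle and erythroid genes to 3.99 and 5.46 CPM with 4 at 0. In keratin-low S-phase cells the immune sum was 39.4 and 141 CPM, the glandular sum 82.3 and 103 CPM and the mesenchymal sum 179 and 285 CPM. Their part in the differences below was not tested beyond leaving out barcodes, which is given with the counts.

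UMIs per cell bear on whether these barcodes could hold a cycling and a maturing cell together. Median UMIs per cell were 8416.5 and 7126 in keratin-high S-phase cells, 1.21 and 1.15 times those of keratin-low S-phase cells (6984.5 and 6178). Low-score keratin cells had medians of 7551 and 6351. A barcode holding 1 median cell of each of these other classes would have 14535.5 and 12529 UMIs, and 3 of 28 and 8 of 70 keratin-high S-phase cells reached that sum. At the other end, 11 of 28 and 30 of 70 had no more UMIs than the median of all kept barcodes. No doublet caller was used, and the share of doublets was not tested. Free keratin RNA was gauged in 13 and 31 immune barcodes, whose median keratin sums were 22.3 and 22.8. Among these immune barcodes 1 and 2 reached 80.

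**Figure D1:**
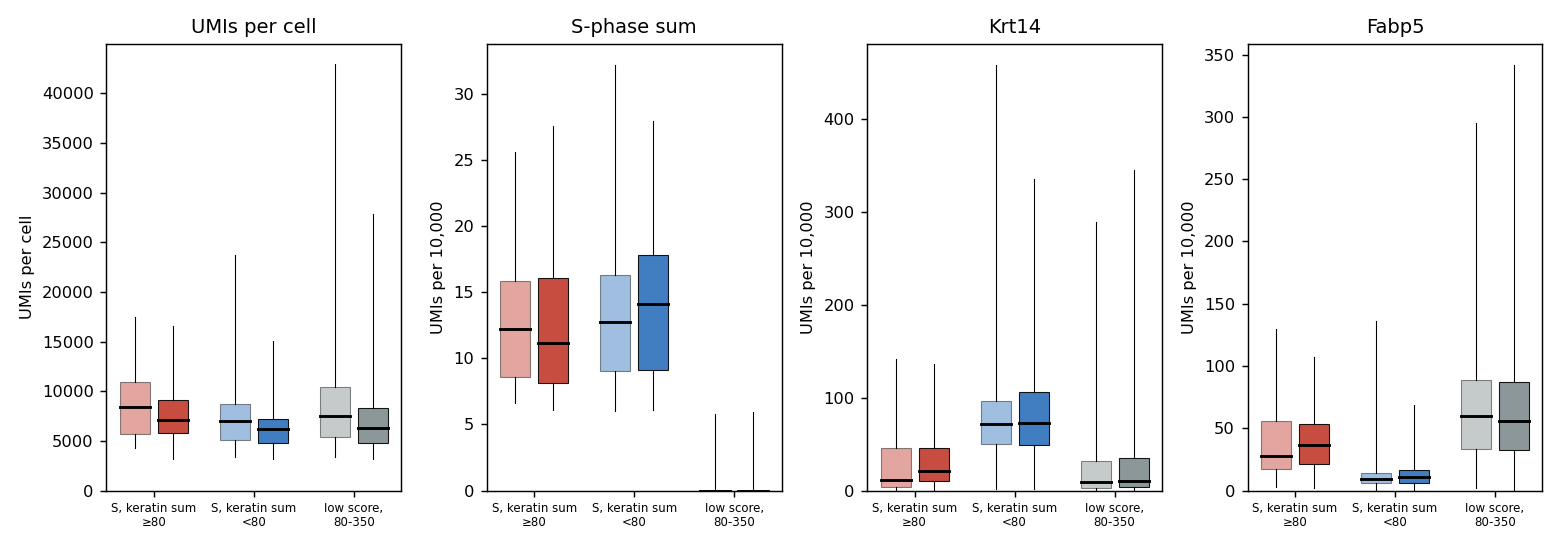
Per-cell values in keratin-high S-phase cells (keratin sum ≥80, red), keratin-low S-phase cells (blue) and low-score keratin cells (grey); pale boxes are library 1 and dark boxes library 2, boxes span quartiles, black bars are medians and lines reach the lowest and highest cell. The UMI boxes overlap, with medians of 8416.5 and 7126 in the red boxes, while Krt14 and Fabp5 (UMIs per 10000) place the red medians between the blue and the grey.

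S-phase cells were rarer at keratin sums above 150 than at 20 to 40, and the 2 libraries stood apart in 1 range. Among cells with keratin sums of 20 to 40, 5.12% and 4.03% were in S phase. Among those of 150 to 350, 1.05% (95% exact binomial interval 0.543% to 1.82%) and 1.15% (0.659% to 1.86%) were. Above 350 there were 0 of 1454 cells (upper bound 0.253%) and 2 of 2056. Between 80 and 150 the shares were 2.02% (1.16% to 3.26%) and 5.10% (3.83% to 6.64%), the widest gap between libraries of the 6 ranges. These intervals and all others here cover counting error only.

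The G2/M share was not lower at 80 to 150 than at 20 to 40 in either library, with 42.2% and 42.2% against 37.1% and 41.5% of cells. The S-phase share was lower there in library 1 alone. Between 150 and 350 the share was 19.7% and 20.8%, and above 350 it was 1.79% and 1.75%. Of G2/M cells, 32.1% and 31.5% had a keratin sum of at least 80, with intervals of 29.9% to 34.3% and 29.7% to 33.4%. Of S-phase cells, 15.2% (10.4% to 21.2%) and 30.8% (24.9% to 37.3%) did. The S-phase intervals of the libraries did not overlap, so the share in S phase was below the G2/M share in library 1 and close to it in library 2. S-phase cells as a whole made up 2.66% and 2.65% of kept cells. With every cell thinned to 3000 UMIs before it was classed, the shares were 20.8% (15.7% to 26.6%) and 27.7% (22.7% to 33.2%). At a keratin threshold of 120 they were 9.24% and 12.8%, a mean of 11.01%. The libraries were split from 1 suspension, and the source of this gap was not tested.

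**Figure D2:**
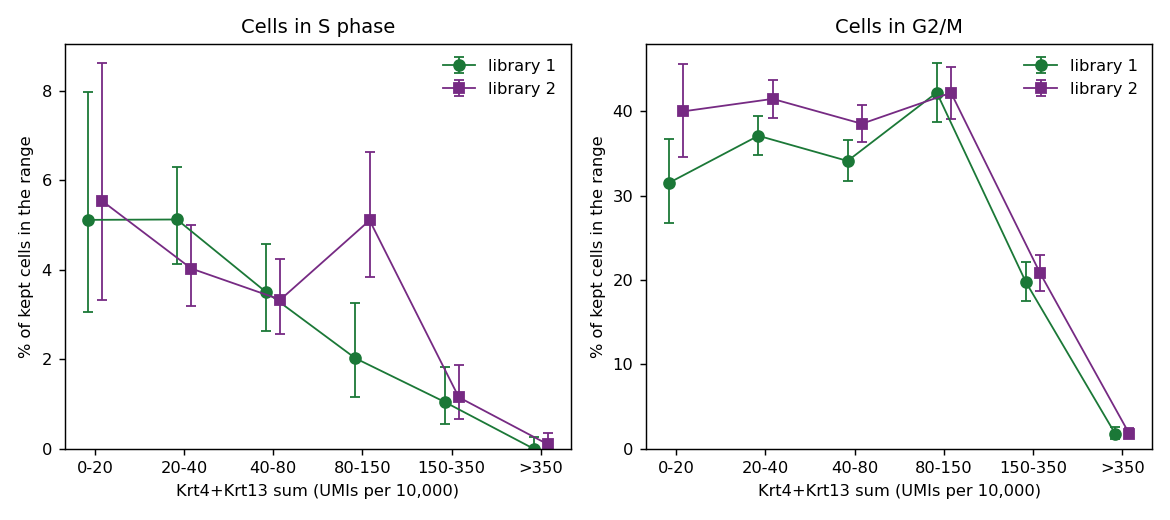
Share of kept cells in S phase (left) and in G2/M (right) by keratin sum (UMIs per 10000), for library 1 (circles) and library 2 (squares), with 95% exact binomial intervals. The S-phase share is 1.05% and 1.15% at 150 to 350, and the libraries stand apart at 80 to 150 (2.02% and 5.10%), where the G2/M share is 42.2% in both.

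The first comparison asked what differed between S-phase cells with and without the keratins. A gene counted as higher or lower when its CPM ratio was at least 1.5 or at most its inverse (0.58 in log2 units) in each library alike, at a mean of at least 20 CPM over both classes. The classes were cut from the same cells, so these counts describe them and support nothing beyond that. Of 5429 genes compared, 194 (3.57%) were higher and 207 (3.81%) lower in keratin-high S-phase cells, of which 172 and 175 also had a 95% counting interval that left out 0. The ratio in 1 library alone passed for more genes: 820 higher and 687 lower in library 1, and 448 and 568 in library 2. With immune and glandular barcodes left out the counts were 196 and 202. Median-of-ratios scaling, which moved the log2 ratios by 0.07 on average, gave 164 and 252, so the share of higher calls went from 48.4% to 39.4%. In all gene results below, ratios are log2 means of the 2 libraries. Some of the calls lost under another setting are given with each group, so a call with no loss named was not always kept. Losses at no more than 5% mitochondrial UMIs (30 of 191 named calls), at 50 CPM and at 2-fold appear only as counts. The settings named are a keratin threshold of 60 or 120, an S-phase threshold of 8, classes and levels from cells thinned to 3000 UMIs (thinned cells), cells with no more UMIs than their library's median (shallow cells), and keratin-high S-phase cells limited to keratin sums of 80 to 150.

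Some early suprabasal genes were higher with the keratins. Of 13 compared, 7 were higher, 0 lower and 6 did not pass, beside 3.57% of all genes higher. The median log2 ratio was 0.83 against 0.00 over all genes. Fabp5 (chr3:10012548-10016607), a fatty acid carrier of maturing keratinocytes, stood at 4067 and 4300 CPM in keratin-high and 1137 and 1287 CPM in keratin-low S-phase cells. Its log2 ratio was 1.79 (95% counting interval 1.73 to 1.88). Ly6d, a surface protein of stratified epithelium, stood at 2124 and 2358 CPM against 665.3 and 851.6 CPM. Calml3, a calmodulin-like protein, stood at 1449 and 1573 CPM against 660.1 and 598.1 CPM. Lypd3, S100a14, Aldh3a1 and S100a16 also passed. All 13 genes had at least 20 CPM in each class. The count was 7 of 13 with sums of 80 to 150 as well (median 0.64), while in shallow cells Lypd3 and S100a14 did not pass.

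The cornified envelope, the protein shell of the surface cell, was represented by 8 compared genes of 22. Of these 7 were higher and 1 lower (median 1.65), beside 3.57% and 3.81% of all genes. Tgm3, the transglutaminase that crosslinks it, stood at 191.6 and 232.8 CPM against 56.0 and 55.6 CPM, a log2 ratio of 1.92. Krtdap, a small secreted keratinocyte protein, stood at 1209 and 800.1 CPM against 181.2 and 270.7 CPM, and 24.9% of its UMIs in the class came from 1 cell. Cnfn, a cornified envelope protein, stood at 163.7 and 56.4 CPM against 11.4 and 18.2 CPM, with 41.7% of its UMIs in 1 cell. Sbsn, Csta1, Dmkn and Ppl were higher too, though the mean of Ppl in library 1 alone was under 20 CPM. Ecm1, an extracellular matrix protein, was lower, at 23.9 and 43.6 CPM against 63.0 and 72.7 CPM. Of the envelope genes, 14 were too low to compare, and 3 of the 8 were under 20 CPM in 1 class and so passed the level filter through the other. Of the 5 with 20 CPM in each class, 4 were higher and 1 lower. With sums of 80 to 150, 5 of 7 were higher (median 0.90) and neither Krtdap, Ppl nor Ecm1 passed. Csta1 did not pass at an S-phase threshold of 8 or in shallow cells.

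Cholesterol synthesis formed the third group that was higher. Of 11 compared genes 7 were higher, beside 3.57% of all genes, and 0 were lower (median 1.37). Fdps, which makes farnesyl diphosphate, stood at 211.6 and 138.2 CPM against 35.0 and 40.4 CPM, a log2 ratio of 2.18. Sqle, squalene epoxidase, stood at 51.9 and 29.1 CPM against 7.003 and 8.08 CPM, and in library 2 alone its mean fell under 20 CPM. Idi1, an isomerase of the same pathway, stood at 143.7 and 98.2 CPM against 34.1 and 52.5 CPM. Cyp51, Fdft1, Msmo1 and Pmvk were the others. The group did not rise as a whole: Hmgcs1, which acts at the pathway's entry, stood at 195.6 and 172.7 CPM against 147.9 and 113.1 CPM and missed the rule in library 1. Of the 9 genes with 20 CPM in each class, 5 were higher. At sums of 80 to 150, 5 of 10 were (median 0.78), without Sqle and Fdft1, and in shallow cells Cyp51, Fdft1 and Msmo1 did not pass.

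Genes of cell-to-cell contacts were higher in part, and genes of contacts with the basement membrane were lower in part. Among desmosome genes 3 of 8 were higher, Dsc2, Pkp1 and Perp, beside 3.57% of all genes. Perp, a desmosome-associated membrane protein, did not pass under median-of-ratios scaling, with equal weight per cell, without the immune and glandular barcodes or in 6 other settings, and Pkp1 did not in shallow cells. Dsc2, a desmosomal cadherin, stood at 83.8 and 136.4 CPM against 37.6 and 34.4 CPM. Among hemidesmosome and basement membrane genes 3 of 7 were lower and 0 higher (median -0.66), beside 3.81% of all genes lower. Itga6, the integrin partner of CD104, stood at 111.8 and 127.3 CPM against 270.5 and 228.3 CPM. Itgb4, the gene of the sorted protein, stood at 59.9 and 56.4 CPM against 112.1 and 88.9 CPM. Lamb3, a laminin chain, was the third, and it passed the level filter only through keratin-low S-phase cells. Of the 6 genes with 20 CPM in each class, 2 were lower. Col17a1, a hemidesmosome collagen, stood at 231.5 and 167.3 CPM against 336.2 and 265.7 CPM, a ratio that missed the size rule in library 1. The Itga6 call was lost at a keratin threshold of 120. That of Itgb4 was lost there too, at an S-phase threshold of 8, with equal weight per cell, in thinned and in shallow cells, and that of Lamb3 in shallow cells. In the list 4 of 7 genes were lower with sums of 80 to 150 (median -0.81).

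Basal keratinocyte genes were lower in part: 3 of 10 passed, beside 3.81% of all genes, with a median of -0.54. Krt14 (chr11:100203162-100207548) stood at 3712 and 3077 CPM against 8899 and 8655 CPM, a log2 ratio of -1.38. Krt15, another basal keratin, stood at 666.6 and 883.7 CPM against 1375 and 1775 CPM. Trp63, the p63 gene that maintains epithelial progenitors, stood at 263.4 and 263.7 CPM against 428.1 and 423.3 CPM. Krt5, the partner of Krt14, stood at 3361 and 2497 CPM against 3113 and 2793 CPM, so the classes overlapped. With sums of 80 to 150, 1 of 10 basal genes was lower (median -0.40), and neither Krt15 nor Trp63 passed. In thinned cells these 2 did not pass either, Krt15 did not at a keratin threshold of 120, and Trp63 did not at one of 60, in shallow cells or with equal weight per cell. Sox2 and Igfbp5 did not pass either. Per cell, the median of Krt14 was 11.5 and 21.3 UMIs per 10000 in keratin-high S-phase cells against 71.6 and 73.1, with single cells up to 141 and 136.

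Some genes of the Wnt and TGF-beta pathways were lower. Of 8 Wnt genes compared 3 were lower, and of 9 TGF-beta and BMP genes 2 were, beside 3.81% of all genes. With 20 CPM in each class the counts were 2 of 6 and 1 of 8. Dkk3 and Tgfbr2 passed the level filter only through keratin-low S-phase cells. Wnt10a, a Wnt ligand, stood at 79.8 and 54.5 CPM against 146.2 and 145.5 CPM. Sfrp1, a secreted Wnt antagonist, stood at 51.9 and 38.2 CPM against 77.9 and 75.8 CPM. Dkk3 stood at 7.98 and 5.46 CPM against 41.1 and 30.3 CPM, on 2 and 3 UMIs, and its mean in library 2 alone was under 20 CPM. Tgfbr2, a TGF-beta receptor, stood at 12.0 and 16.4 CPM against 37.6 and 34.4 CPM, and Tgfbi, a TGF-beta-induced matrix protein, also passed. With sums of 80 to 150, 1 of 7 Wnt genes and 1 of 9 TGF-beta and BMP genes were lower, and neither Wnt10a, Sfrp1 nor Tgfbi passed. The Dkk3 call was lost at a keratin threshold of 120, at an S-phase threshold of 8 and in shallow cells, and that of Sfrp1 at a keratin threshold of 60, in shallow cells and with equal weight per cell.

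Single genes of other lists were higher. They were Hes1, a Notch target (1 of 5 genes of its list, 299.4 and 360.0 CPM against 121.7 and 168.7 CPM), the receptor gene Erbb2 (1 of 2), Myc (1 of 16 growth genes) and the maturation factor Elf3 (1 of 12 maturation regulators, median 0.21). Erbb2 and Elf3 passed the level filter only through keratin-high S-phase cells. Of the genes with 20 CPM in each class, 0 of 1 and 0 of 11 were higher in their lists. Beside the 3.57% of all genes, single calls say little of their lists. None of these 4 calls held in every setting: Hes1 and Erbb2 were lost at a keratin threshold of 120 and in shallow cells, and Myc and Elf3 with sums of 80 to 150.

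Outside these groups the 10 genes furthest above 0 were Ly6g6e, Gsta1, Serpinb3a, Krt32, Crabp2, Ces1b, Serpinb12, Sult2b1, Siah2 and Ptgs1. Crabp2, a retinoic acid carrier, stood at 127.7 and 103.6 CPM against 21.9 and 23.2 CPM. Gsta1, a glutathione transferase, stood at 39.9 and 32.7 CPM against 5.25 and 5.05 CPM, with a mean under 20 CPM in library 2 alone. The 10 furthest below 0 were Lgals1, Dlk2, Smoc2, Agrn, Sparc, Plscr4, Cav1, Serpinh1, Osgin2 and Arid5b, of which Osgin2 had a mean under 20 CPM in library 1 alone. Sparc, a matrix glycoprotein, stood at 71.8 and 50.9 CPM against 194.3 and 187.9 CPM, and Serpinh1, a collagen chaperone, at 39.9 and 38.2 CPM against 116.4 and 98.0 CPM. Beside them the mesenchymal marker Dcn was lower, at 51.9 and 45.5 CPM against 169.8 and 277.8 CPM, and in S-phase cells with keratin sums under 40 it stood at 231.8 and 406.2 CPM. Its part in these differences was not tested. With sums of 80 to 150, Crabp2, Gsta1, Ly6g6e, Serpinb3a, Serpinb12 and Osgin2 did not pass. Krt32, Siah2, Agrn, Arid5b and Plscr4 did not in shallow cells, Cav1 did not in thinned cells, and Ptgs1 did not at an S-phase threshold of 8.

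Replication genes differed by the size rule about as seldom as all genes (3.57% higher, 3.81% lower) between S-phase cells with and without the keratins. In the licensing and helicase list 0 of 14 compared genes differed (median -0.10). In the fork and polymerase list 1 of 34 was lower and 0 higher (median -0.18), in nucleotide supply 0 of 17 (median -0.19), and among E2F and pocket protein genes 0 of 12 (median 0.04). Mcm6 (chr1:128331590-128359664) stood at 179.6 and 132.7 CPM against 139.2 and 140.4 CPM. Pcna, the sliding clamp, stood at 347.3 and 329.1 CPM against 328.3 and 399.0 CPM. For both genes the classes overlapped, and the counting intervals of the log2 ratios were -0.24 to 0.39 and -0.32 to 0.09. The exceptions were Rfc3, a clamp loader subunit (63.9 and 70.9 CPM against 129.6 and 119.2 CPM), and Hmgn2, a nucleosome-binding protein that was 1 lower gene among 19 chromatin genes (179.6 and 245.5 CPM against 392.2 and 429.4 CPM). Of 18 mitosis genes 1, Kif11, was lower, and Mki67 stood at 71.8 and 80.01 CPM against 91.0 and 106.1 CPM. Since the S-phase sum chose both classes, similar levels of these genes are partly set by the rule. In thinned cells 2 of 14 licensing genes and 5 of 33 fork genes were lower and 0 higher, and with sums of 80 to 150 these counts were 3 of 15 and 2 of 34. The Rfc3 call was lost in thinned cells and at a keratin threshold of 120, the Hmgn2 call with sums of 80 to 150, and the Kif11 call at both keratin thresholds, in shallow cells and with equal weight per cell.

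The second comparison set the keratin-high S-phase cells against low-score keratin cells. Of 5264 genes compared, 550 (10.4%) were higher and 154 (2.93%) lower in the S-phase cells, with 544 and 146 also past the counting interval. In library 1 alone 1172 were higher and 519 lower, and in library 2 alone 800 and 424. Median-of-ratios scaling shifted the log2 ratios by 0.15 on average and gave 413 and 266, which took the share of higher calls from 78.1% to 60.8%. The low-score cells had more keratin, with a median sum of 187 and 198. Restricting both classes to sums of 80 to 150 (16 and 52 S-phase cells), an alternative added after the data were seen, gave 525 and 242.

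Replication genes stood higher in the S-phase cells, which the rule in part imposed. The level filter imposed it further, since a gene under 20 CPM in low-score keratin cells was compared only where the S-phase class was high. This held for 9 of the 10 licensing genes compared and for all 8 E2F and pocket protein genes, and 7 genes of each list were not compared at all, so their counts are not given. Where both classes had 20 CPM, 11 of 11 fork genes, 12 of 12 chromatin genes and 6 of 10 nucleotide supply genes were higher, against 10.4% of all genes compared. Mcm6 stood at 8.92 and 9.96 CPM in low-score keratin cells. Rpa2, a subunit of the protein that coats single-stranded DNA, stood at 151.7 and 181.8 CPM against 8.92 and 11.7 CPM, a log2 ratio of 4.02. Uhrf1, which guides maintenance methylation, stood at 87.8 and 103.6 CPM against 3.88 and 3.53 CPM. E2f8, a repressor that closes the E2F wave, stood at 83.8 and 61.8 CPM against 2.74 and 3.70 CPM. E2f1, its activator counterpart, stood at 31.9 and 60.01 CPM against 2.65 and 4.23 CPM, and in library 1 alone its mean was under 20 CPM. The 10 furthest outside the lists included Neil3, a DNA glycosylase, and Esco2, the cohesin acetyltransferase. Esco2 stood at 75.8 and 138.2 CPM against 2.47 and 2.03 CPM.

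Regulators of entry into S phase differed in direction. Cdkn1a (chr17:29090976-29100727), which encodes p21, stood at 75.8 and 150.9 CPM in keratin-high S-phase cells. It stood at 39.4 and 49.5 CPM in keratin-low S-phase cells and at 235.8 and 269.2 CPM in low-score keratin cells. It was thus higher than in the first (log2 1.28) and lower than in the second (-1.24). The first of these calls was lost at keratin sums of 80 to 150, a keratin threshold of 60, an S-phase threshold of 8 and in shallow cells. Ccnd1 (chr7:144929931-144939925), cyclin D1, stood at 219.5 and 221.8 CPM, above both the keratin-low S-phase cells (105.0 and 136.4 CPM) and the low-score keratin cells (132.4 and 134.9 CPM). Its log2 ratios were 0.88 (0.60 to 1.17) and 0.72 (0.50 to 0.94). Neither passed at a keratin threshold of 60 or an S-phase threshold of 8, the first was also lost at a keratin threshold of 120, and the second was also lost at keratin sums of 80 to 150 in both classes and under median-of-ratios scaling. Ccnd2, cyclin D2, was lower, at 335.3 and 336.4 CPM against 585.7 and 579.9 CPM in keratin-low S-phase cells. That call was lost in thinned and in shallow cells, at an S-phase threshold of 8 and with sums of 80 to 150. Its level in low-score keratin cells was 262.0 and 257.1 CPM. Cdk4, Ccnd3 and the INK4 inhibitors Cdkn2c and Cdkn2d were higher than in low-score keratin cells, and Cdk4 stood at 331.3 and 352.8 CPM against 168.4 and 180.0 CPM.

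Some maturation genes were lower than in low-score keratin cells, and most of those compared did not pass. Among all genes compared 2.93% were lower. Of 15 early suprabasal genes 4 were lower and 0 higher (median -0.45), Lypd3, Ly6d, Fabp5 and Sfn. Fabp5 stood at 6960 and 6945 CPM and Ly6d at 3485 and 3965 CPM in low-score keratin cells. Of 11 cornified envelope genes 4 were lower, Sprr2a3, Sprr1a, Csta1 and Tgm3 (median -0.54). Of the 9 with 20 CPM in each class, 2 were lower. The other 2 lower genes passed the level filter only through low-score keratin cells. Of 17 maturation regulators 4 were lower and 0 higher (median -0.59), Cebpa, Maf and Klf4 among them. Klf4, a barrier factor, stood at 23.9 and 41.8 CPM against 81.8 and 79.7 CPM. With keratin sums of 80 to 150 in both classes the suprabasal list kept 1 lower gene of 13 (median -0.43), the envelope list 3 of 11 (median -0.68) and the regulators 4 of 16 (median -0.71). Neither Fabp5, Ly6d, Tgm3 nor Csta1 passed there. In thinned cells 0 of 14 suprabasal genes passed (median -0.31), 3 of 13 envelope genes were higher and 1 lower (median -0.24), and 3 of 17 regulators were lower (median -0.56). The Klf4 call was lost at a keratin threshold of 120. Genes of the basal layer, the hemidesmosome and cholesterol synthesis gave 0 calls in either direction (10, 6 and 13 compared).

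Stress keratins and alarmins had the lowest median of the 26 lists in this comparison (-2.01). Of 7 compared genes 4 were lower, beside 2.93% of all genes. Krt6b, a keratin induced by wounding and stress, stood at 19.96 and 21.8 CPM against 343.8 and 275.1 CPM, a log2 ratio of -3.88. Krt6a stood at 463.0 and 280.0 CPM against 1565 and 1350 CPM, and Alox15, a lipoxygenase, at 3.99 and 14.5 CPM against 56.8 and 77.1 CPM. Krt16 stood at 3.99 and 7.27 CPM against 269.7 and 140.3 CPM, on 1 and 4 UMIs. Krt16 and Alox15 passed the level filter only through the low-score keratin cells. Of the 5 genes with 20 CPM in each class, 2 were lower. Among cells with no more UMIs than their library's median, 1 of 5 genes of this list was lower (median -0.57), and neither Krt6b, Krt16 nor Alox15 passed. The Krt16 ratio was 0.35 there, with a count of 0 set to 3, so its sign at that depth cannot be read. In thinned cells 2 of 7 were lower (median -0.87), without Krt6b and Krt16. At keratin sums of 80 to 150, 7 of 8 were lower (median -2.47). The furthest outside the lists included Chil4, a chitinase-like protein (211.6 and 1011 CPM against 4653 and 5148 CPM, with 67.2% of the S-phase UMIs in 1 cell), Krt24, Gsdmc and Hist1h2bc. Genes of the stress list were lower in keratin-low S-phase cells as well. Against low-score cells with keratin sums under 80, 5 of 7 were lower there (median -0.93), beside 3.42% of all genes. With 20 CPM in each class 2 of 4 were. The 11 genes of the list summed to 583 and 580 CPM in keratin-high and to 540 and 666 CPM in keratin-low S-phase cells.

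**Figure D3:**
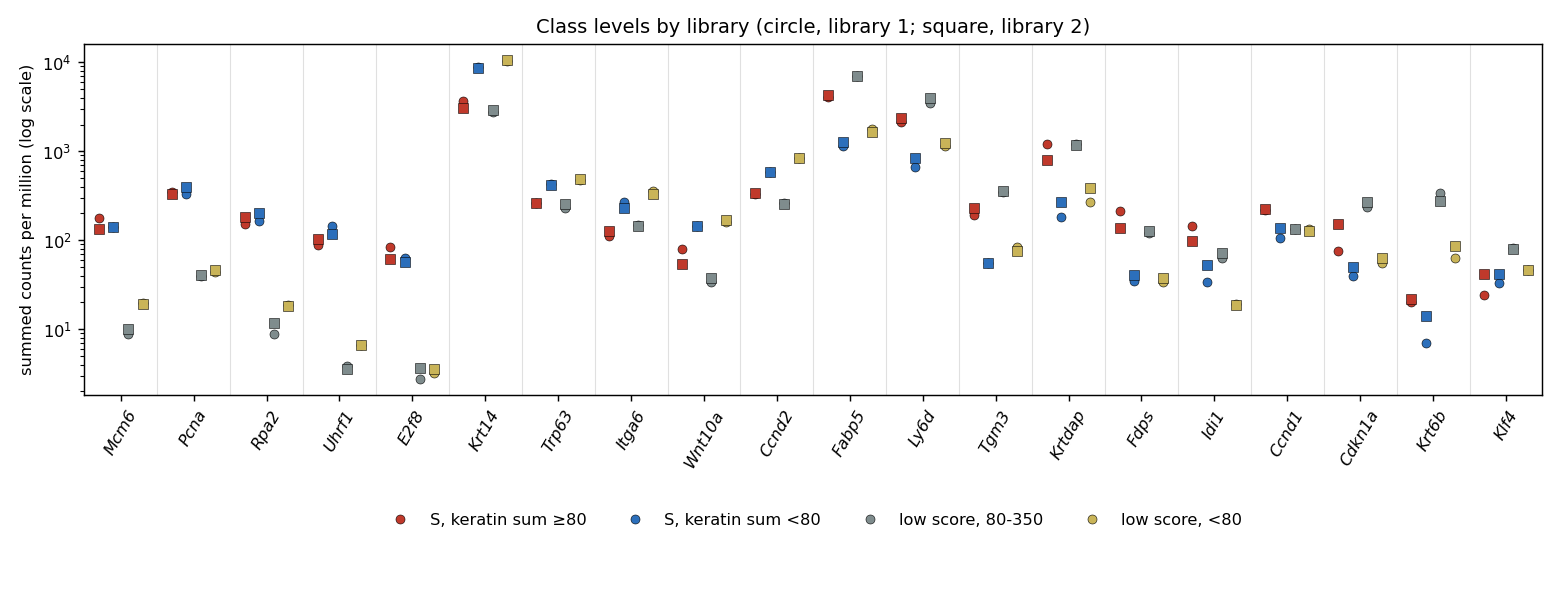
Summed CPM (log axis) of 20 genes in keratin-high S-phase cells (red), keratin-low S-phase cells (blue), low-score keratin cells (grey) and low-score cells with keratin sums under 80 (yellow); circles are library 1 and squares library 2, with 1 point per class and library. Replication genes such as Mcm6 pair red with blue, Fabp5 and Tgm3 place red between blue and grey, and Ccnd1 is highest in red (219.5 and 221.8 CPM).

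A few genes stood outside the range of both other classes. In all 16 genes were higher than in both and 11 lower than in both, 14 and 7 of them also past the counting interval. The sets changed with the settings: 5 and 1 kept both calls in thinned cells, and 7 and 2 at a keratin threshold of 120. The counts were 8 and 3 in shallow cells, 9 and 8 at keratin sums of 80 to 150, and 0 of either at 2-fold. With no more than 5% mitochondrial UMIs they were 10 and 3. Tmem97, a sterol-linked membrane protein, stood at 39.9 and 49.1 CPM against 14.01 and 19.2 CPM in keratin-low S-phase cells and 20.5 and 20.3 CPM in low-score keratin cells. It lost both calls at keratin sums of 80 to 150, and the first at a keratin threshold of 120. Pelp1, a nuclear receptor co-regulator, stood at 47.9 and 52.7 CPM against 21.9 and 21.2 CPM and against 26.9 and 26.6 CPM, and lost both calls in thinned cells. Serpinb3a, a protease inhibitor, stood at 135.7 and 154.6 CPM against 17.5 and 29.3 CPM and against 76.8 and 87.4 CPM. Of the Serpinb3a UMIs 37.0% came from 1 cell, and at keratin sums of 80 to 150 its ratio to low-score cells was -0.67. Kpna2, Nsun5, Mboat7, Ncbp1, Setd6, Usp33, Spg20 and Slc19a1 were others. Spg20 and Nsun5 fell under 20 CPM on average in library 2 alone, as did Usp33, and Slc19a1, a folate carrier, was lower rather than higher with cells thinned to 3000 UMIs (log2 -0.50 and -0.41).

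Below both classes, B2m, the light chain of MHC class I, stood at 355.3 and 418.2 CPM. It stood at 774.7 and 723.3 CPM in keratin-low S-phase cells and at 634.5 and 718.9 CPM in low-score keratin cells, for log2 ratios of -0.96 and -0.81. Ctsl, a lysosomal protease, stood at 47.9 and 60.01 CPM against 154.9 and 122.2 CPM and against 89.2 and 91.8 CPM. Rtkn, Ttc5, Iah1, Dcaf11, Tspyl1, Dnajc4, Cyth2, C330006A16Rik and Pja1 completed the set. Both B2m calls were lost at a keratin threshold of 120 and in thinned cells, where the direction stayed the same, and both Ctsl calls there and in shallow cells. In between lay 25 genes that were above keratin-low S-phase cells and below low-score keratin cells, Fabp5, Ly6d, Tgm3, Gsta1, Csta1 and Cdkn1a among them, and 15 that were the reverse, Rfc3 and Hmgn2 among them. At keratin sums of 80 to 150 only 3 of the 25 (Pvrl4, Pdzk1ip1 and Lypd3) and 2 of the 15 (Rfc3 and Dek) kept both calls. There Fabp5, Ly6d, Tgm3, Gsta1 and Csta1 no longer passed against low-score keratin cells, and Cdkn1a and Gsta1 no longer passed against keratin-low S-phase cells.

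Steps between classes that share no cells could be set side by side. The low-score keratin cells against low-score cells with keratin sums under 80 (2120 and 2301 cells) gave 247 genes higher (4.79%) and 385 lower (7.47%) of 5154. Over 4768 genes compared in both, the log2 step from low to high keratin inside S phase and outside it had a Pearson r of 0.71 and a Spearman rho of 0.58, across genes that are not independent replicates. Over 205 list genes the values were 0.88 and 0.85. The same keratin sum cut the classes of both steps, so this likeness and the overlaps that follow were in part imposed. Among genes compared in both steps, 167 were higher with keratin in S phase and 203 outside it. Of these 109 were in both sets, 65.3% of the first and 53.7% of the second. Lower genes numbered 174 and 352 and overlapped in 122, or 70.1% and 34.7%. The step of Krt14 was -1.38 in S phase and -1.90 outside it, that of Fabp5 was 1.79 and 2.02, and that of Ccnd1 was 0.88 and 0.04. The keratin step itself was smaller in S phase, with a median over Krt4 and Krt13 of 2.11 against 2.42. Its part in the size of the other steps was not tested.

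The step into S phase was compared in the same way at low and high keratin. Keratin-low S-phase cells against low-score cells under 80 gave 494 genes higher (9.13%) and 185 lower (3.42%) of 5410. Across 4938 genes the S-phase step at high and at low keratin had a Pearson r of 0.87 and a Spearman rho of 0.67. Across 248 list genes the values were 0.96 and 0.90. The same S-phase and G2/M sums cut the classes of both steps, so this likeness was in part imposed. The level filter imposed it further. At low keratin, 6 of 11 licensing genes and 7 of 7 E2F and pocket protein genes passed it only through S-phase cells. Among genes compared in both steps, 512 were higher in S phase at high keratin and 426 at low keratin. Of these 343 were in both sets, 67.0% of the first and 80.5% of the second. Lower genes numbered 131 and 153 and overlapped in 48, or 36.6% and 31.4%. For Mcm6 the step was 4.03 at high keratin and 2.83 at low keratin. Low-score cells under 80 held more of it (19.9 and 19.3 CPM) than low-score keratin cells (8.92 and 9.96 CPM).

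**Figure D4:**
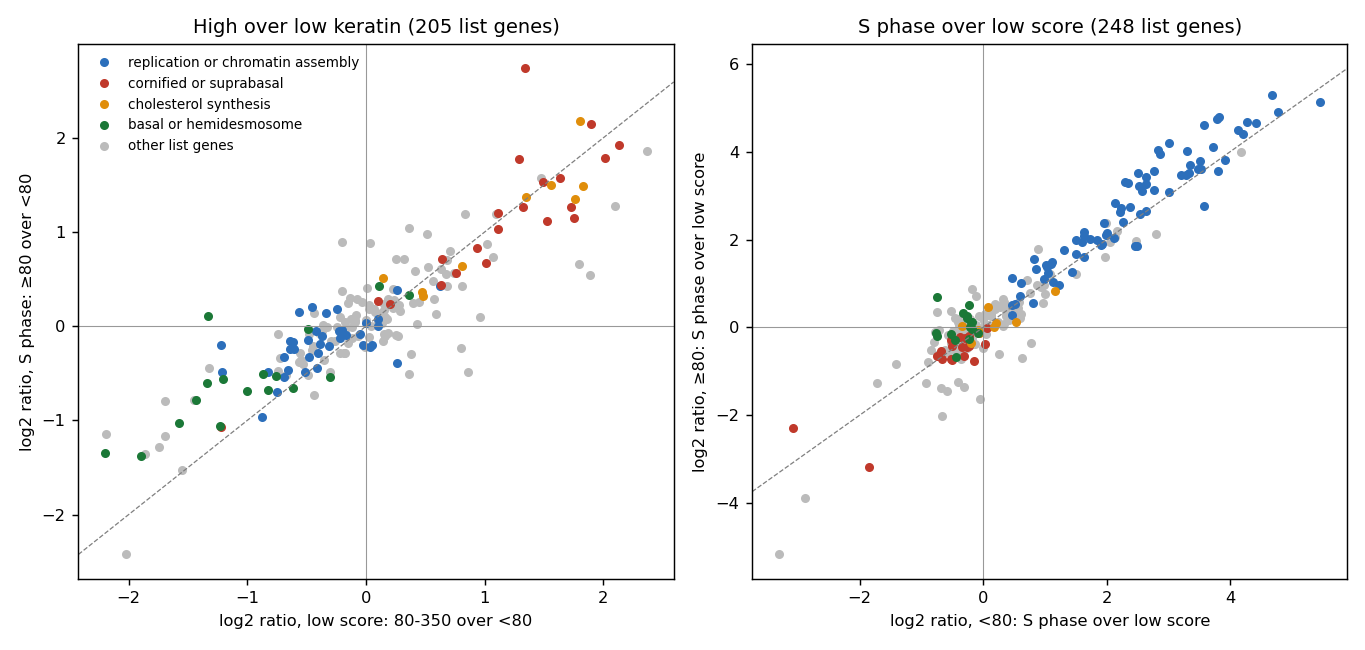
Log2 steps per list gene between classes that share no cells: high over low keratin in S phase against the same step in low-score cells (left, 205 genes), and S phase over low score at high keratin against the same step at low keratin (right, 248 genes); the dashed line marks equal steps. Suprabasal and cholesterol genes lie high in the left panel and replication genes high in the right panel. The place of the replication genes was in part imposed by the rule and the level filter. The likeness of the steps in each panel was in part imposed too, since the same sums cut the classes of both. In the left panel the slope over list genes is 0.73, below that of the dashed line, and in the right panel Mcm6 lies above it (4.03 against 2.83). The step of Krt4 and Krt13 is itself smaller in S phase (median 2.11 against 2.42), and its part in the slope was not tested.

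Within keratin ranges the S-phase cells could be set beside low-score and G2/M cells. Keratin sums inside a range were not matched between the phases, and the range of 120 to 350 is wide. The part of unmatched keratin sums in the differences below was not tested. At keratin sums of 80 to 120 (11 and 41 S-phase cells), Krt14 stood at 4332 and 3179 CPM in S phase, 2638 and 2743 CPM in G2/M and 6268 and 6683 CPM in low-score cells. Fabp5 stood at 3310 and 3526 CPM in S phase, 3987 and 3971 CPM in G2/M and 3694 and 3814 CPM in low-score cells. At 120 to 350 (17 and 27 S-phase cells) Fabp5 stood at 4437 and 4661 CPM in S phase, 6130 and 6058 CPM in G2/M and 7680 and 7602 CPM in low-score cells. S-phase cells thus had the lowest Fabp5 of the phases in both ranges and both libraries, while for Krt14 they lay between G2/M and low-score cells at 80 to 120 and were highest at 120 to 350 (3410 and 2746 CPM against 1551 and 1403 CPM in G2/M and 1961 and 2092 CPM in low-score cells).

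Against G2/M cells with keratin sums of at least 80 (586 and 755 cells), 320 of 5395 genes were higher (5.93%) and 260 lower (4.82%). The G2/M sum chose these cells, so the 22 of 22 mitosis genes that were lower describe the choice. Ccnd2 stood at 87.5 and 87.7 CPM in keratin-high G2/M cells, against 335.3 and 336.4 CPM in keratin-high S-phase cells. Krt14 stood at 1844 and 1791 CPM against 3712 and 3077 CPM. Of 14 early suprabasal genes 0 differed (median -0.23).

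**Figure D5:**
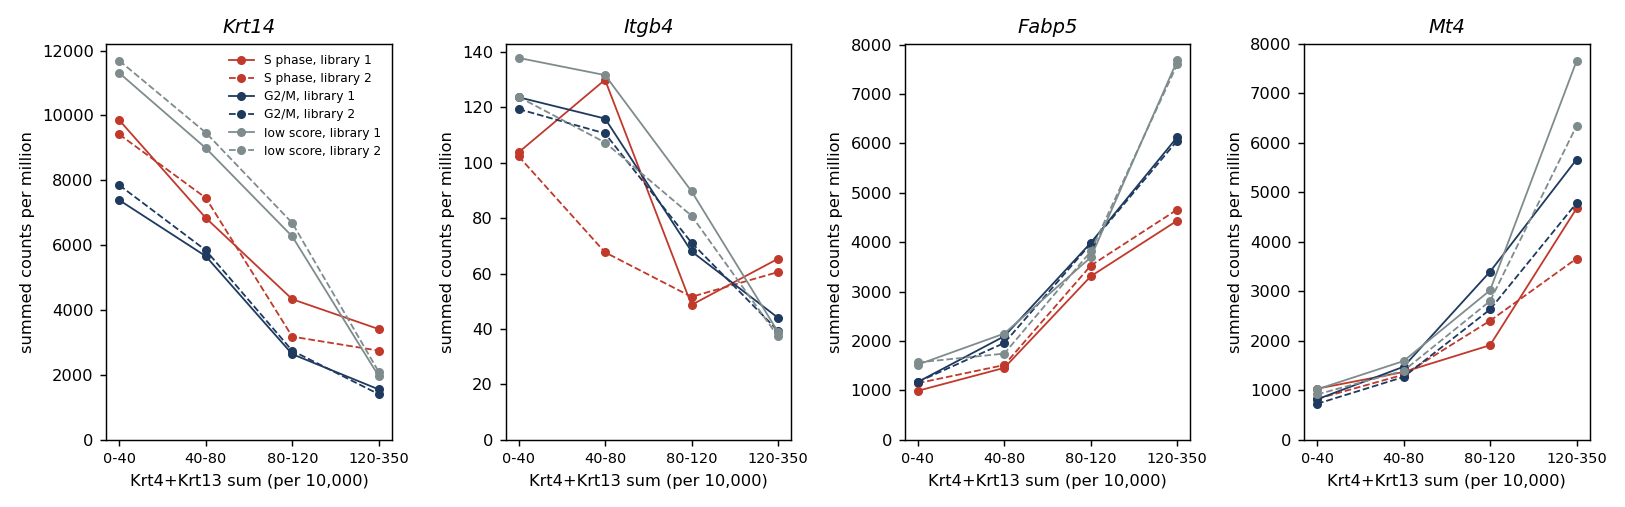
Summed CPM of Krt14, Itgb4, Fabp5 and Mt4 by keratin sum (UMIs per 10000) in S-phase (red), G2/M (dark blue) and low-score cells (grey); solid lines are library 1 and dashed lines library 2. Krt14 falls and Fabp5 climbs over the ranges in each phase, with Fabp5 in S-phase cells reaching 4437 and 4661 CPM at 120 to 350.

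Among the 98 cells themselves the keratin sum and the S-phase sum were close to unrelated (Pearson r -0.09, Spearman rho -0.14, as a description across cells that share 2 libraries and their depth). The rule cut off both sums, at 80 and at 6, so a weak relation was in part imposed. The keratin sum went with Fabp5 (r 0.38, rho 0.35) and with UMIs per cell (r 0.31, rho 0.26), and not with Krt14 (r 0.04, rho -0.14). Krt14 in the 98 cells ranged from 0.926 to 141 UMIs per 10000 in library 1 and from 0 to 136 in library 2. These values cover keratin sums of at least 80 only. Across all S-phase cells Krt14 stood at 9853 and 9415 CPM at keratin sums under 40 and at 3410 and 2746 CPM at 120 to 350.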

How the data were processed

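Per the labels, sorted buccal cells of 10 pooled mice were split into 2 technical libraries, and the authors deposited UMI counts per gene and barcode. Cell Ranger and mm10 are named in the submitters' processing notes, while versions, annotation and cell filter were not given in the sources used here. Kept barcodes (15470 of 16291) had 500 or more genes and no more than 10% of UMIs from mitochondrial genes. No doublet caller was run, and UMIs per cell were examined instead. Counts were summed per class and library (250523 and 549941 UMIs in keratin-high S-phase cells), scaled to 1000000, and compared as ratios within each library. A count of 0 was set to 3, which is 12.0 and 5.46 CPM in those cells, and a library with both counts at 3 or fewer gave no ratio. Genes of the rule and mitochondrial genes were left out of gene counts. Ratio intervals are exact binomial over both libraries together. The scripts were tested on simulated data. The cells and the 26 gene and 5 marker lists were chosen with earlier results of these data known. Named genes were the 15 furthest list genes each way per comparison, up to 4 examples per list, the 10 furthest outside the lists and the 12 furthest beyond both classes each way, and preset markers. Other names complete a count and were chosen after their values were seen. Alternatives varied thresholds, depth, scaling, weights and the size rule. Coordinates are from GENCODE M21, which held 27722 of the 27998 gene identifiers. Software was Python 3.11.15 (scipy 1.17.1, numpy 2.4.6, matplotlib 3.10.9, pandas 2.3.3).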

Additional observations from a re-analysis of the deposited data

How the results depend on the processing

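No paired analysis was possible because the libraries are 2 splits of 1 group, with no second group that shares their numbers. The counts of genes depended on the size rule by construction. In the order higher and lower than keratin-low S-phase cells, then higher and lower than low-score keratin cells, they were 194, 207, 550 and 154. They were 72, 74, 229 and 71 at a mean of at least 50 CPM, 428, 549, 1094 and 398 at 5 CPM, and 61, 46, 289 and 36 at 2-fold. With 1 library left out they ranged from 448 to 820, 568 to 687, 800 to 1172 and 424 to 519, since agreement between libraries was no longer asked. Among cells at or under the median UMIs (11 and 30 S-phase cells) the first was 372 and the last 277. The last was 266 with median-of-ratios scaling and 242 at keratin sums of 80 to 150 in both classes. The mean share of S-phase cells with a keratin sum of at least 80 was 23.0%, and 11.01% at a threshold of 120. Of 191 calls for named genes, 177 kept their direction under every alternative that gave a value, and 14 did not. Far more stopped passing the size rule: 101 at 50 CPM, 77 at 2-fold, 73 of 187 in cells at or under the median UMIs, 68 in thinned cells, 48 at keratin sums of 80 to 150, 45 and 29 at keratin thresholds of 120 and 60, 30 at 5% mitochondrial UMIs, 23 at an S-phase threshold of 8, 20 with equal weight per cell, and 0 to 10 in each other setting. Against keratin-low S-phase cells, thinning to 3000 UMIs gave -0.504 for Slc19a1 and -0.539 for Usp33, and cells at or under the median UMIs gave -0.300 for Serpinb12, -0.009 for Cldn8, -0.035 for Slc19a1, 0.001 for Tspyl1 and 0.234 for Dnajc4. Against low-score keratin cells, thinning gave 0.007 for Pvrl4, -0.413 for Slc19a1 and 0.179 for C330006A16Rik. Cells at or under the median gave 0.152 for Hspa1a, 0.345 for Krt16, 0.551 for Rnase1, -0.109 for Slc19a1 and 0.175 for Dnajc4, and keratin sums of 80 to 150 gave -0.67 for Serpinb3a. The cause was not tested. Depth limits low genes: 3 UMIs are 12.0 CPM in the keratin-high S-phase cells of library 1, and genes under 20 CPM were not compared.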

Other observations

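Glycolysis, p53 and heat shock genes differed about as seldom as all genes, of which 3.57% were higher and 3.81% lower than in keratin-low S-phase cells, and 10.4% higher and 2.93% lower than in low-score keratin cells. Of 12 glycolysis genes compared, 0 differed from keratin-low S-phase cells and 1, Aldoa, was lower than in low-score keratin cells (359.2 and 387.3 CPM against 553.1 and 607.1 CPM), a call lost in 4 settings, thinned cells among them. Of 6 p53 target genes 0 differed in either comparison. Of 11 heat shock genes 1, Hspb1, was higher than in keratin-low S-phase cells (794.3 and 700.1 CPM against 502.5 and 463.7 CPM), a call lost in 8 settings, median-of-ratios scaling and equal weight per cell among them. Against low-score keratin cells 1 of 11, Hsp90aa1, was higher and 1, Hspa1a, was lower. Hsp90aa1 stood at 758.4 and 592.8 CPM against 319.7 and 318.2 CPM. Tgfb1, the ligand, stood at 39.9 and 58.2 CPM, above low-score keratin cells (13.1 and 15.2 CPM), and did not pass in thinned cells.

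In library 2, 60 UMIs of Ccer2 lay in 1 keratin-high S-phase cell with 8637 UMIs, of 61 UMIs in all kept barcodes of that library. In library 1 the gene had 0 UMIs in the class. It was left out of the gene counts, because library 1 held too few UMIs for a ratio.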
